A study of Mus musculus with 8 samples.

Results

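The genes described here encode the proteins of the cytosolic ribosome. They were taken from the table by symbol, as every gene named Rps or Rpl (or Rplp0 to Rplp2) followed by a number and, in some, a letter, together with Rpsa. The rule found 84 genes of 16538 in the table, of which 33 belong to the small subunit and 51 to the large subunit. Of these, 6 were listed as paralogs of a core gene (Rpl3l, Rpl7l1, Rpl22l1, Rpl39l, Rps4l and Rps27l). The other 78 were counted as core genes, with Rpl6l among them. In the GENCODE M21 annotation, Rps4l and Rpl6l are pseudogenes, although the table lists both. The ribosomal protein gene Fau carries another name and falls outside the rule, as do Rack1, Rpl36al and Rps27rt, and their values are given beside the others.

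RNA was sequenced from double-negative stage 3 (DN3) thymocytes, the stage of T cell development at which β-selection takes place, of C57BL/6 mice aged 6 weeks. The 4 control libraries came from mice with the genotype Sel1l-f/f, and the 4 Sel1l CKO libraries from Sel1l-f/f mice that also carried hCD2cre+. All 8 libraries thus come from mice with floxed alleles of Sel1l, the adaptor of the ubiquitin ligase HRD1 in endoplasmic reticulum-associated degradation (ERAD), and the controls carry no Cre, so that an effect of the recombinase and one of the deletion cannot be told apart. The human CD2 promoter drives the recombinase from early thymocytes onward, so later lymphoid cells are deleted as well. The labels do not say which animals the libraries came from, and p values measure the spread between libraries.

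A ribosome holds a single copy of nearly every ribosomal protein, and the cell makes these proteins in matched amounts from genes scattered over the genome. Their messenger RNAs are among the most abundant of growing cells and start with a run of pyrimidines, the 5′ terminal oligopyrimidine (TOP) motif, through which mTOR signaling controls their translation. In the thymus, Rpl22 is known for its role in the development of αβ T cells, and Rpl10 for mutations in T cell leukemia.

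The starts of 7 genes are shown because the pyrimidine run is the sequence feature that this gene family is known for, and because Rpl10 and Rpl36al are the genes on which the comparison turns. Each line gives 30 bases from RefSeq, build GRCm38.p6, 5′ to 3′ on the strand of the gene. Capitals mark the first run in the line of C followed by at least 4 pyrimidines. Later runs of this kind, in the Rps6, Rpl12 and Rpl39 lines, are left in lower case. In the first 5 genes the run begins within 5 bases of the annotated start, and in Rpl36al it begins at base 14 of the transcript. These 6 lines hold the annotated start. The Rpl10 line does not, since its run begins at base 42, and it shows bases 21 to 50 of the transcript.
Rps6, chr4:86857348-86857377, minus strand: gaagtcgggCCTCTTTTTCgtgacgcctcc
Rplp2, chr7:141447641-141447670, plus strand: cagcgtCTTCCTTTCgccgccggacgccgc
Rpl12, chr2:32961702-32961731, plus strand: agcaggatccgtCTTTTCggctttcggctc
Rpl22l1, chr3:28805498-28805527, plus strand: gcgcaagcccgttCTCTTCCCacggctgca
Rpl39, chrX:37085203-37085232, minus strand: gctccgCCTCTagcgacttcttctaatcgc
Rpl10, chrX:74270836-74270865, plus strand: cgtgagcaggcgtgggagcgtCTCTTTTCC
Rpl36al, chr12:69184045-69184074, minus strand: tcgctcaggttcagttccgaCTTCCgctct

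Of the 84 genes, 62 were matched to a RefSeq promoter, and 29 of these (46.8%) had such a run beginning within 5 bases of the start, against 21.2% of 27025 genes. Anywhere in the first 50 bases after the start, the run was present in 90.3% of the ribosomal protein genes and 55.5% of all genes. The motif CCGGAAG, bound by ETS factors, was found on either strand of 41.9% of the ribosomal protein promoters and 9.93% of all promoters. The letters TATAAA occurred in 11.3% and 15.7%. The endoplasmic reticulum stress element, CCAAT and CCACG separated by 9 bases, was in 0 of the 62 ribosomal protein promoters and in 0.137% of all promoters. A motif this rare would hardly be met among 62 promoters, so its absence does not set the family apart. These are matches of letters and not binding sites.

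The deposited values are RPKM, that is, read counts corrected for gene length and for sequencing depth. Low values fit a length that runs over the whole gene with its introns, so genes with long introns carry lower values. Levels of different genes are therefore compared here on the length of their longest coding transcript. The choice of genes to name, the minimum mean and the shares of the summed RPKM used deposited RPKM. Reads counted on genes ranged from 32900253 to 50401359 per library, and ribosomal protein genes with recovered reads had a median of 46297 reads per library. All 9 DN3 markers had a mean RPKM of at least 1, and their sum was 273 to 299 RPKM in control libraries and 229 to 268 RPKM in Sel1l CKO libraries. The sum of 5 B cell markers was 8.22 to 10.2 RPKM in control libraries and 5.31 to 8.22 RPKM in Sel1l CKO libraries, and that of 6 myeloid and dendritic markers was 2.36 to 3.45 and 0.765 to 1.97 RPKM. That of 4 thymic stroma markers was 3.14 to 4.96 RPKM in control and 1.95 to 2.30 RPKM in Sel1l CKO libraries. The sum of 7 genes that respond to handling was 354 to 3699 RPKM in control libraries and 153 to 508 RPKM in Sel1l CKO libraries, and that of 13 mitochondrially encoded genes was 7855 to 13985 and 6614 to 7902 RPKM. The part of these differences in the results was not tested. Sel1l itself, the targeted gene, had a mean of 1.67 ± 0.114 RPKM in control libraries and 1.09 ± 0.222 RPKM in Sel1l CKO libraries (SD, n = 4 each). Replicates 1 and 2 alone gave a log2 difference of −0.89 for Sel1l, and replicates 3 and 4 one of −0.30.

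Ribosomal protein genes held a large share of the summed RPKM of every library, and the shares of the genotypes overlapped. The share was 27.1%, 27.7%, 27.1% and 26.1% in control replicates 1 to 4 and 29.4%, 27.9%, 28.0% and 27.2% in Sel1l CKO replicates 1 to 4. The median was 0.868 percentage points higher in Sel1l CKO libraries. With the mitochondrially encoded genes left out of the sum, the difference of the medians was 0.368 percentage points. As a share of reads, which does not depend on the gene length, they took 9.19% to 10.5% of the reads counted in control and 9.45% to 10.9% in Sel1l CKO libraries. In bulk RNA, fewer cells of a type and less RNA per cell cannot be told apart.

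**Figure D1:**
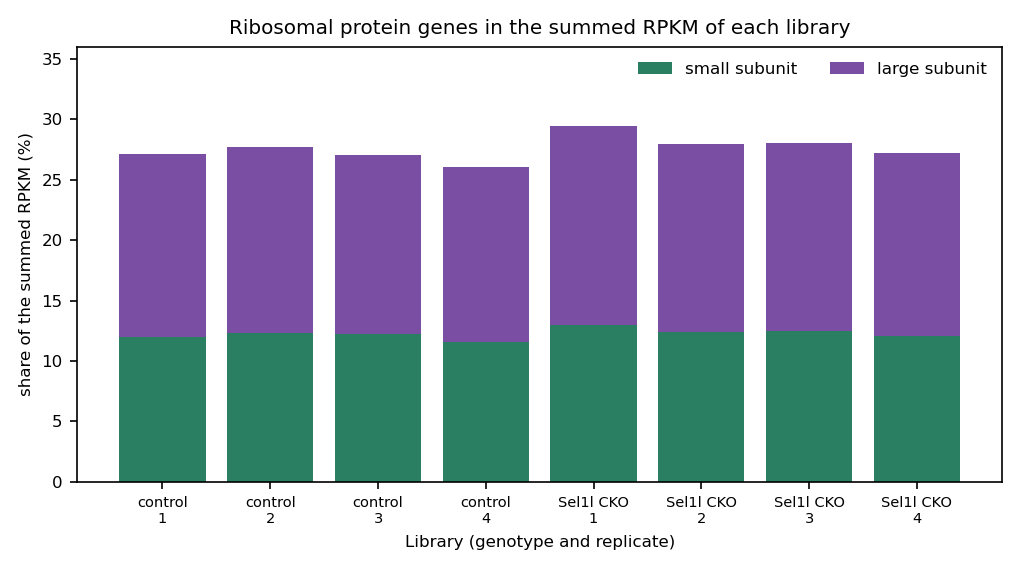
Share of the summed RPKM (percent, y axis) that lies in small subunit genes (lower part of each bar) and large subunit genes (upper part) in each of the 8 libraries. The bars reach from 26.1% to 29.4%, and those of the 2 genotypes overlap.

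On the length of the longest coding transcript, Rplp1, a protein of the ribosomal stalk, had the highest mean level in control libraries (3138 RPKM), followed by Rplp0 (2569 RPKM), Rps29 (2483 RPKM) and Rps14 (2450 RPKM). Rpl7l1 was lowest among the genes tested that had recovered reads (50.04 RPKM), which leaves out Rps4l and Rpl6l. Rps15a stood at 161 RPKM on this scale, and its longest coding transcript is 5179 bases long. The 2 genes below the minimum mean RPKM of 1 were Rpl3l, a paralog known from skeletal muscle, with deposited values of 0.0453 to 0.300 RPKM, and Rpl39l, known from the testis, with 0 to 0.124 RPKM. Neither entered the limma test, which left 82 genes, 33 of the small and 49 of the large subunit.

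To ask whether loss of Sel1l was accompanied by a change in this gene family, the genotypes were compared by limma's moderated test on log2(RPKM + 0.1) of the 6512 genes whose mean reached 1 RPKM. Of the 82 ribosomal protein genes, 1 was higher (Rpl10) and 0 were lower in Sel1l CKO cells at an adjusted p under 0.05, where 4.27% of all genes tested were called higher and 1.01% lower. At an unadjusted p under 0.05 there were 7, namely Rpl10, Rplp2, Rpl38, Rps27a, Rpl12 and Rps25 with higher and Rps4l with lower values, where 20.8% of all genes tested passed that limit. Rpl10 was also the only one of the 82 with all Sel1l CKO libraries above all controls, a pattern that 9.15% of all genes showed, and 0 had every Sel1l CKO library below, against 5.59% of all genes. For 79 of the 81 genes not called, the 95% interval of the difference lay within 1.5-fold in either direction. The other 2 were Rps4l and Rpl29.

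**Figure D2:**
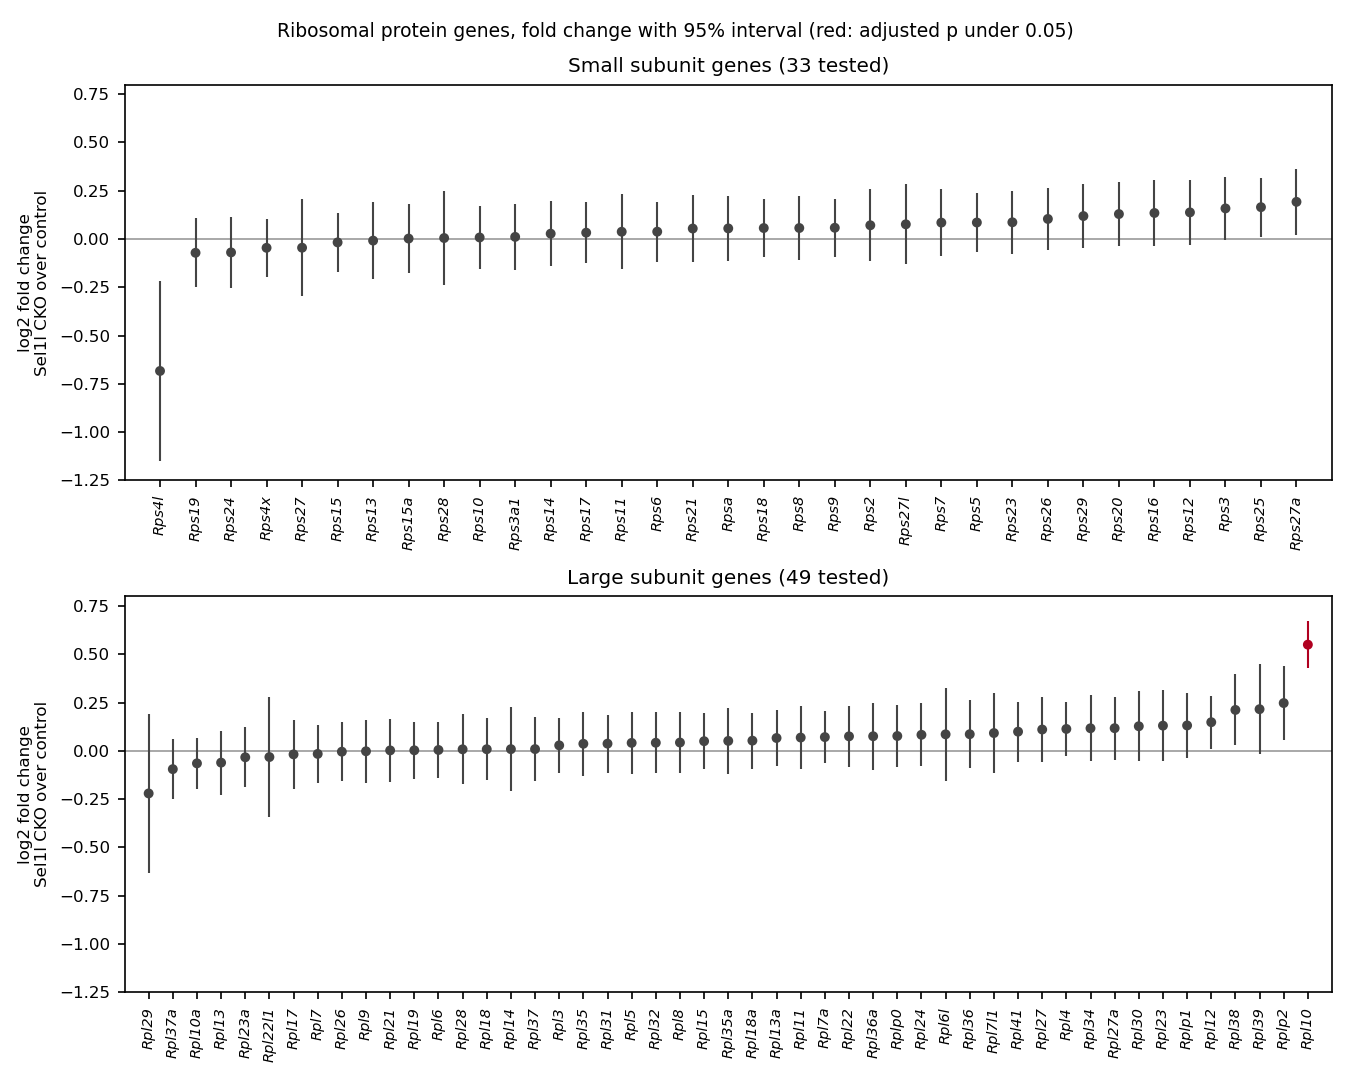
Log2 fold change of Sel1l CKO over control (y axis, points) with its 95% interval (lines) for the 33 small subunit genes (top) and the 49 large subunit genes (bottom) tested, in order of size. Rpl10, in red, at 0.55, is the only gene past an adjusted p of 0.05, and the widest interval is that of Rps4l.

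The remaining differences were small and mostly above 0. The median log2 fold change was 0.05 for the 82 genes, 0.05 for the small subunit and 0.05 for the large subunit, beside 0.01 for all genes tested. With a mean of at least 5 RPKM required, it was 0.054 for the remaining 81 ribosomal protein genes. For all 2709 genes above that limit it was 0.046. A higher mean of the log2 values in Sel1l CKO libraries was found for 65 of 82 genes (79.3%) and for 52.6% of all genes. The median of the 82 genes rested on single libraries: it was 0.02 without Sel1l CKO replicate 1, 0.03 without control replicate 1 and 0.09 without control replicate 3. Within replicates 1 and 2, 78 of 82 genes were higher in Sel1l CKO cells, whereas within replicates 3 and 4 only 22 were, although the labels name no batch. The medians of the 82 genes were 0.16 and −0.05, beside 0.03 and 0.002 for all genes tested.

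Ribosomal protein genes moved together from library to library. Relative to each gene's own mean over the 8 libraries, the median of the 82 genes was −0.10, −0.03, 0.09 and −0.07 (log2) in control replicates 1 to 4 and 0.15, 0.03, 0.01 and −0.07 in Sel1l CKO replicates 1 to 4. In control replicate 3, 77 of 82 genes were above their own mean, and in Sel1l CKO replicate 1, 78 were, while in Sel1l CKO replicate 4 only 6 were. The medians of the 2 genotypes overlapped. The median SD within a genotype was 0.099 (log2) for ribosomal protein genes and 0.135 for all genes tested, and it was 0.045 once the library's own median of the 82 genes was taken off.

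**Figure D3:**
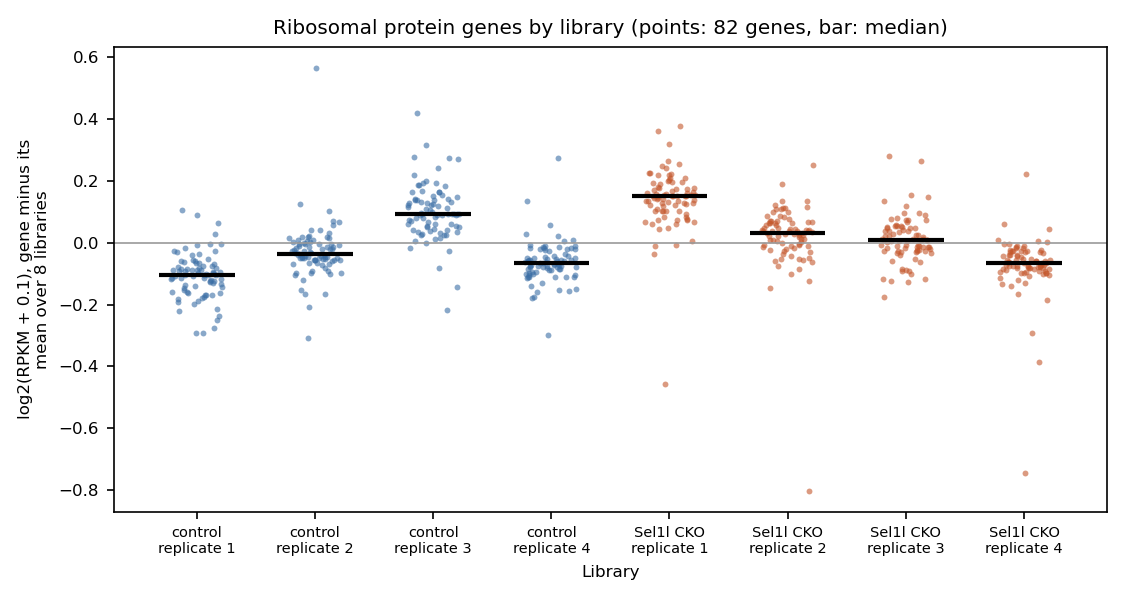
Deviation of each of 82 ribosomal protein genes from its own mean over the 8 libraries (log2, y axis) in each library (x axis), with the median as a black bar. The medians run from −0.10 to 0.09 in control and from −0.07 to 0.15 in Sel1l CKO libraries and overlap between the genotypes.

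Rpl10 (ENSMUSG00000008682.13, chrX:74270812-74273135, plus strand) encodes a large subunit protein that joins late in assembly and reaches toward the peptidyl transferase centre. Its values were 595, 581, 619 and 585 RPKM in control replicates 1 to 4 and rose to 925, 856, 865 and 840 RPKM in replicates 1 to 4 of Sel1l CKO. No control library reached the lowest Sel1l CKO library, and the mean rose from 595 ± 16.8 to 871 ± 37.1 RPKM (SD, n = 4 each), or by 46.5%. The log2 fold change was 0.55 with a standard error of 0.054 (limma adjusted p = 0.000318). Replicates 1 and 2 alone gave 0.60, and replicates 3 and 4 alone gave 0.50. Relative to the median of the 82 genes in the same library, the difference was 0.49. On the length of the longest coding transcript, Rpl10 ranked 24 of 82 by its mean level in control and 7 of 82 in Sel1l CKO libraries. These 82 are the genes with recovered reads, which take in Rpl3l and Rpl39l and leave out Rps4l and Rpl6l.

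Many processed copies of ribosomal protein genes lie in the mouse genome, and reads that match a copy as well as the gene may be counted on either or left out. Of all 150-base windows of the longest Rpl10 coding transcript, 83.3% were found unaltered in an annotated transcript of another gene, the largest share among the genes of the rule. Other genes with large shares had smaller differences: Rps6 (82.4%) had a log2 fold change of 0.04, Rpl36a (81.1%) one of 0.08, Rps12 (79.3%) one of 0.14 and Rpl13 (77.2%) one of −0.06. In all, 14 genes shared more than 50% of their windows and 14 shared none. Among the 66 genes tested with at most 50% shared, 0 were called by limma, 4 had an unadjusted p under 0.05 (20.8% of all genes), and the median log2 fold change was 0.05. The row named Rpl10-ps3, a pseudogene of Rpl10, held 2.12, 4.43, 5.51 and 4.54 RPKM in control libraries and 7.54, 7.73, 6.55 and 5.74 RPKM in Sel1l CKO libraries (log2 fold change 0.79, limma adjusted p = 0.124). That row had only 64 to 289 recovered reads per library. Of 15 tested rows named as pseudogenes of ribosomal protein genes, 12 had higher values (52.6% of all genes). Their median log2 fold change was 0.27. Of the 15, 1 was called higher (4.27% of all genes) and 3 had all Sel1l CKO libraries above all controls (9.15% of all genes). The row called was Rpl15-ps6 (0.72, limma adjusted p = 0.00668), while Rpl15 itself had a log2 fold change of 0.05. How reads were divided between these genes and their copies was not tested. Apart from copies, the spans of 15 ribosomal protein genes cross that of a further listed gene (on the same strand in 1 case), and 30 host a total of 58 annotated small nucleolar RNAs in their span, among them Rpl10.

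**Figure D4:**
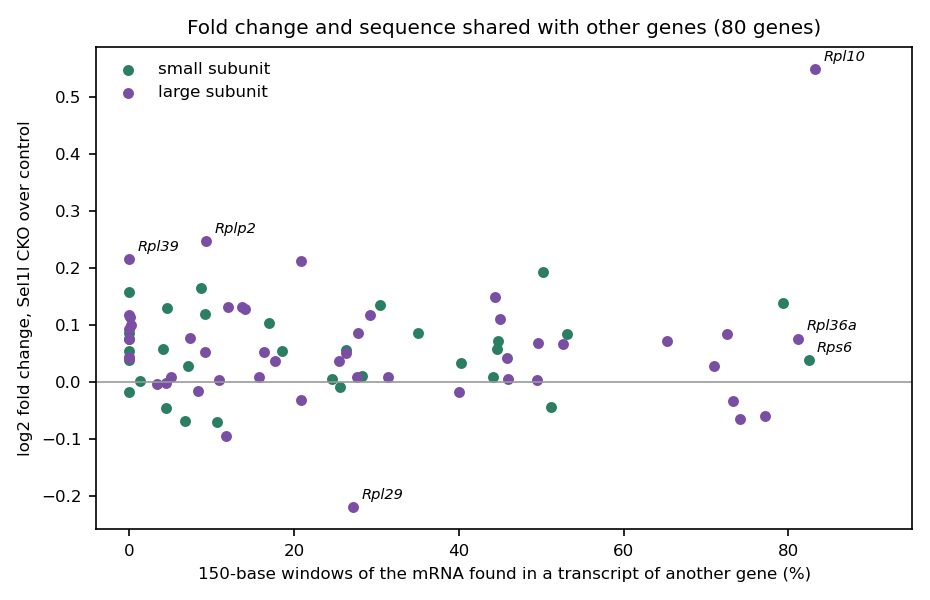
Log2 fold change of Sel1l CKO over control (y axis) against the share of 150-base windows of the longest coding transcript that occur in a transcript of another gene (percent, x axis), for small and large subunit genes. Rpl10 stands at 83.3% and 0.55, while Rps6 and Rpl36a, at 82.4% and 81.1%, lie at 0.04 and 0.08.

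Rpl36al (ENSMUSG00000049751.6, chr12:69182731-69184083, minus strand), an expressed paralog of Rpl36a whose name falls outside the rule, differed by a similar amount. It was at 118, 123, 135 and 123 RPKM in control libraries and reached 181, 189, 185 and 187 RPKM in replicates 1 to 4 of Sel1l CKO. The groups did not overlap, and the mean rose from 125 ± 7.15 to 185 ± 3.43 RPKM (SD, n = 4 each). The log2 fold change was 0.58 (limma adjusted p = 0.000390), and 18.2% of its windows were shared with another gene. Rpl36a itself was at 203, 225, 246 and 213 RPKM in the controls, against 253, 232, 233 and 216 RPKM in Sel1l CKO libraries, which overlapped (log2 fold change 0.08, limma adjusted p = 0.596). Fau, which encodes Rps30 fused to a ubiquitin-like protein, had a log2 fold change of 0.10 (adjusted p = 0.444). Rack1 had a value of 0.06 and Rps27rt one of −0.05, and their groups overlapped.

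**Figure D5:**
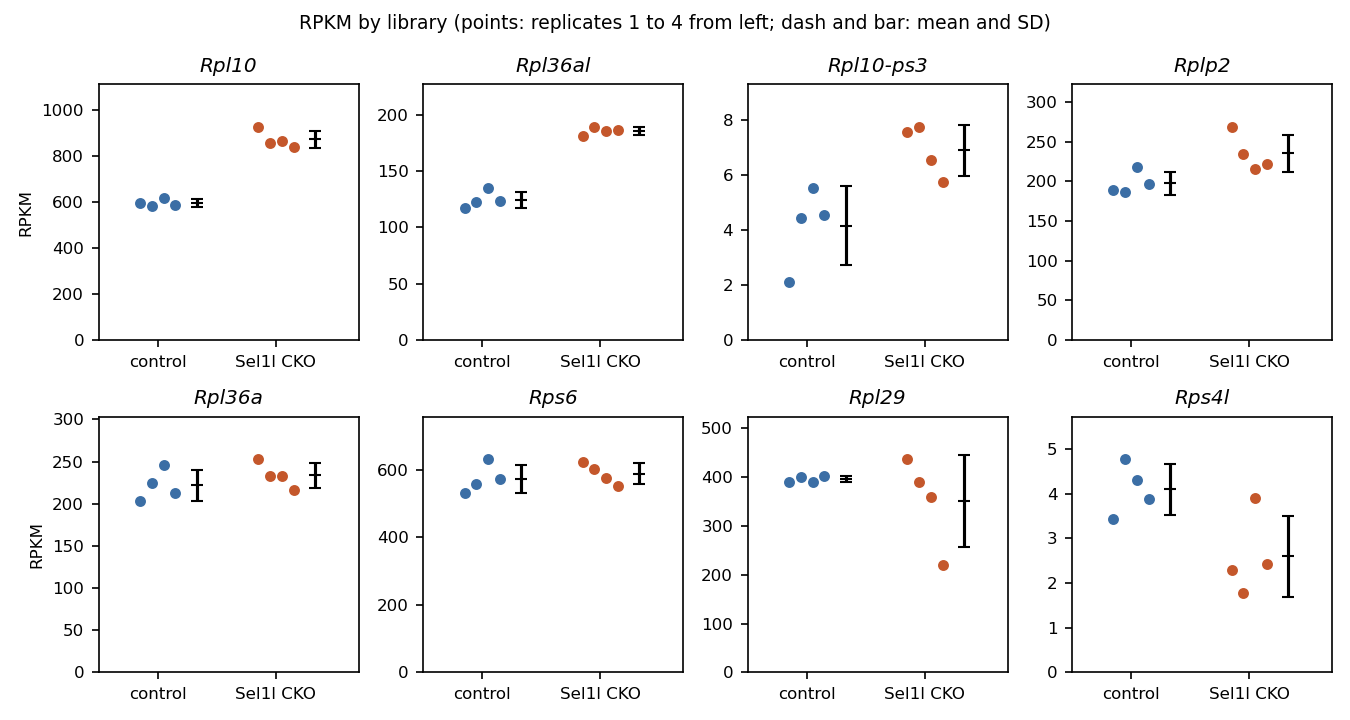
RPKM (y axis) of 8 genes in the control (left) and Sel1l CKO (right) libraries, with points for replicates 1 to 4 and the mean and SD beside them. Rpl10, Rpl36al and Rpl10-ps3 do not overlap between genotypes, the other 5 do, and Rpl29 has a single low value of 219 RPKM in Sel1l CKO replicate 4.

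In the ribosomal stalk, which recruits the GTPases of translation, all 4 genes had higher values, 0 passed the limma test and 2 (Rplp2 and Rpl12) had an unadjusted p under 0.05 (20.8% of all genes), with a median log2 fold change of 0.14. Rplp2 was at 190, 186, 219 and 197 RPKM in the controls, against 268, 234, 216 and 222 RPKM in replicates 1 to 4 of Sel1l CKO. Control replicate 3 lay above Sel1l CKO replicate 3, and the log2 fold change of 0.25 (95% interval 0.06 to 0.44) had a limma adjusted p of 0.137. Rpl12, at the base of the stalk, had a log2 fold change of 0.15 (adjusted p = 0.204), Rplp1 one of 0.13 (adjusted p = 0.355) and Rplp0 one of 0.08 (adjusted p = 0.567).

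Around the peptide exit of the large subunit, where nascent chains leave and meet the translocon, 5 of 8 genes had higher values, 0 passed the limma test and 0 had an unadjusted p under 0.05 (median 0.02). Rpl39, which lines the exit tunnel, was at 128, 129, 148 and 129 RPKM in the controls, against 187, 147, 156 and 134 RPKM in Sel1l CKO libraries, with a log2 fold change of 0.22 (limma adjusted p = 0.272). The groups overlapped. In the group at the peptidyl transferase centre, 1 of 3 genes (Rpl10) was called higher, against 4.27% of all genes. Rpl3 and Rpl4 had log2 fold changes of 0.03 and 0.11 and did not pass the test. Rpl5 and Rpl11, which form the 5S particle with the 5S RNA and bind the p53 regulator MDM2 when assembly fails, had log2 fold changes of 0.04 and 0.07 (adjusted p = 0.772 and 0.616).

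Of the 33 small subunit genes, 0 passed the limma test in either direction and 3 (Rps27a, Rps25 and Rps4l) had an unadjusted p under 0.05, against 20.8% of all genes tested. The largest positive differences were those of Rps27a, made as a fusion with ubiquitin (0.19, limma adjusted p = 0.196), Rps25 (0.16, adjusted p = 0.208) and Rps3 (0.16, adjusted p = 0.257). Rps27a was at 442, 455, 516 and 443 RPKM in the controls, against 566, 535, 544 and 475 RPKM in Sel1l CKO libraries. Control replicate 3 exceeded Sel1l CKO replicate 4. The 4 genes whose proteins receive regulatory ubiquitin when ribosomes collide or stress is sensed (Rps2, Rps3, Rps10 and Rps20) all had higher values, 0 passed the limma test or had an unadjusted p under 0.05, and their median was 0.10. Rps6, the substrate of S6 kinase, had a log2 fold change of 0.04, and Rpsa, which also serves as a laminin receptor, one of 0.05.

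Of the 18 genes listed as mutated in Diamond-Blackfan anemia, 0 passed the limma test or had an unadjusted p under 0.05, 14 had higher values and the median log2 fold change was 0.04. Rps19, the gene most often mutated in that disease, was at 218, 204, 238 and 198 RPKM in the controls, against 228, 195, 196 and 197 RPKM in Sel1l CKO libraries (log2 fold change −0.07, limma adjusted p = 0.634). Rps24 also had a value of −0.07 (adjusted p = 0.657), and Rps14, lost in the 5q- syndrome, one of 0.03 (adjusted p = 0.857). The groups overlapped for each of these 3.

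The lowest values among the fold changes belonged to Rps4l and Rpl29. Rps4l was at 3.44, 4.77, 4.31 and 3.88 RPKM in the controls, against 2.30, 1.79, 3.90 and 2.42 RPKM in Sel1l CKO libraries, with a log2 fold change of −0.68 (95% interval −1.15 to −0.22, limma adjusted p = 0.103). Sel1l CKO replicate 3 lay among the controls. When each library was left out in turn, Rps4l was called only without that library (log2 fold change −0.89, limma adjusted p = 0.0094). No other setting that tested Rps4l called it. Those that required a mean of at least 5 RPKM or recovered reads did not test it, and its read depth is unknown. Rpl29 was at 390, 401, 391 and 403 RPKM in the controls, against 436, 390, 359 and 219 RPKM in replicates 1 to 4 of Sel1l CKO (log2 fold change −0.22, adjusted p = 0.516), so that its difference rested on Sel1l CKO replicate 4. Rpl37a (−0.09, adjusted p = 0.461) and Rpl10a (−0.06, adjusted p = 0.553) followed in the large subunit.

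Paralogs were compared with their partners in 5 pairs, as the log2 ratio of the paralog to the partner in each library. The ratio of Rpl22l1 to Rpl22 was 0.45 ± 0.149 in control and 0.34 ± 0.183 in Sel1l CKO libraries (SD, n = 4 each), a difference of −0.11 (two-sided exact permutation p = 0.371). For Rpl7l1 and Rpl7 the difference was 0.11 (exact permutation p = 0.371), for Rps27l and Rps27 0.12 (exact permutation p = 0.429) and for Rpl3l and Rpl3 −0.42 (exact permutation p = 0.286), where Rpl3l had only 16 to 88 reads per library. For Rps4l and Rps4x it was −0.64 (exact permutation p = 0.114). After adjustment over the 5 pairs every p was 0.429. With 70 assignments, 1 pair alone could not have passed an adjusted p of 0.05, even if its groups were fully apart. Rpl22 was at 42.7, 44.7, 49.7 and 46.3 RPKM in the controls, against 51.5, 49.8, 46.7 and 45.3 RPKM in Sel1l CKO libraries, which overlapped (log2 fold change 0.08, limma adjusted p = 0.566).

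Other gene groups of ribosome production are given beside these for comparison. Of 71 genes tested for the mitochondrial ribosome, 3 were higher in Sel1l CKO cells by limma (4.27% of all genes), 0 were lower, and the median log2 fold change was 0.11. A higher value was found for 62 of them (87.3%), an unadjusted p under 0.05 for 18 (20.8% of all genes), and 10 had all Sel1l CKO libraries above all controls (9.15% of all genes). The 3 called by limma were Mrps12 (0.38, adjusted p = 0.008), Mrpl2 (0.31, adjusted p = 0.038) and Mrps18b (0.44, adjusted p = 0.039). Of 64 ribosome biogenesis genes, 0 passed the limma test, 5 had an unadjusted p under 0.05 (20.8% of all genes) and the median was 0.08. For RNA polymerase I and its factors, 10 of 13 had higher values and the median was 0.08. Of the 13, 1 was called lower by limma (Taf1c, −0.57, adjusted p = 0.011), against 1.01% of all genes. Of 18 other mRNAs with a TOP motif, 0 passed and 0 had an unadjusted p under 0.05, with a median of 0.02.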

How the data were processed

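The deposited table gives RPKM for 16538 genes in 8 libraries, made by the authors from stranded mRNA libraries sequenced in pairs of 150 bases, aligned to GRCm38 with STAR 2.5.2b and counted on protein-coding genes with HTSeq 2.7, per the submitters' notes. Whether the strand was used in counting is not given in the sources used here.

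The log2 of RPKM + 0.1 was tested two-sided by limma 3.58.1 in R 4.3.3 in the 6512 genes whose mean reached 1 RPKM. The model held genotype alone and allowed the variance to follow the mean, and p values were adjusted over all these genes by Benjamini-Hochberg. Ratios of paralogs were tested by exact permutation over 70 assignments. The study's own count model, DESeq2, was not run, and recovered reads were tested only by limma voom, as an alternative.

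Whole reads (within 0.01 of a whole number in all libraries) were recovered for 94.7% of the genes with a GENCODE M21 span and a value, on the annotated span for 75.0% and otherwise on the shortest length that gave them. All 82 ribosomal protein genes with a span gave reads, 53 of them on the annotated span. Python 3.11.15, numpy 2.4.6, pandas 2.3.3 and matplotlib 3.10.9 were also used.

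The genes and lists were chosen with earlier results of these data known. Genes named are those past the threshold, the 3 largest differences in each direction and the 3 highest and lowest deposited RPKM in each subunit, paralogs with their partners, and well-known members. Rpl36al, its partner Rpl36a, Rpl10-ps3, Rpl12, Rpl38 and the genes with many shared windows were named after their values were seen, and the run within 50 bases and the stress element were added then. Alternatives were pseudocounts, filters, scalings, limma settings, a replicate block, a batch term and left-out libraries, with 4 added after seeing the data, namely limma voom on recovered reads, RPKM on transcript length, shares without Rpl10, and genes with few shared windows.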

Additional observations from a re-analysis of the deposited data

Results flagged for a closer look

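In 4 of 72 groups of 4 libraries, 1 library stood apart from the other 3 by Dixon's criterion, where chance gives about 3.6. Rps24, Rps15a and Rpl39 were high in control replicate 3, at 317, 81.0 and 148 RPKM, against 248 to 258, 66.4 to 68.4 and 128 to 129 RPKM in the other control libraries. Rps19 was high in Sel1l CKO replicate 1, at 228 RPKM against 195 to 197 RPKM. These are also the 2 libraries in which most ribosomal protein genes were above their own mean.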

How the results depend on the processing

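Rpl10 was called higher in all 22 settings run, with a log2 fold change of 0.52 to 0.57 and a limma adjusted p of 2.7e-05 to 0.00985. The number of ribosomal protein genes called higher was 2 after quantile normalization (with Rpl41, log2 fold change 0.21, limma adjusted p = 0.0168) and 2 with limma array weights (with Rpl38, 0.24, adjusted p = 0.0494), and the number called lower ranged from 0 to 1 with 1 library left out, where the 1 was Rps4l without Sel1l CKO replicate 3. Over all genes tested, 344 were called, against 218 at a mean RPKM of at least 5, 640 with array weights and 525 with a batch term that set replicates 1 and 2 apart from 3 and 4. The cause of these differences was not tested. The median of the ribosomal protein genes was 0.01 after quantile normalization and 0.02 to 0.09 with 1 library left out.

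Small differences that did not pass the test changed sign. Rps15a went to −0.0022 with libraries rescaled to the same sum. Quantile normalization gave −0.016 for Rpsa, −0.040 for Rps15a, −0.051 for Rpl3 and −0.029 for Rpl5. Array weights gave −0.0028 for Rps27l, −0.0013 for Rpl8, −0.034 for Rpl7l1, 0.025 for Rpl22l1, −0.023 for Rpl3 and 0.062 for Rps27. With each library left out in turn, the ranges were −0.026 to 0.069 for Rps15a, −0.024 to 0.083 for Rps14, −0.052 to 0.020 for Rps15, −0.11 to 0.0095 for Rps24, −0.13 to 0.061 for Rpl22l1, −0.038 to 0.029 for Rpl7, −0.13 to 0.053 for Rps27, −0.070 to 0.0014 for Rps4x, −0.0040 to 0.10 for Rpsa, −0.0093 to 0.073 for Rpl8 and −0.015 to 0.054 for Rpl3.

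Replicate numbers were not taken as pairs. Each gene's deviations from its genotype mean were correlated between control and Sel1l CKO libraries. For same-numbered libraries the correlation was 0.16, 0.097, 0.44 and 0.0051 for numbers 1 to 4. Only control replicate 3 correlated best with the Sel1l CKO library of its own number. With the replicate block, 317 genes and 1 ribosomal protein gene were called, and Rpl10 had a limma adjusted p of 0.00656. The lowest mean among the ribosomal protein genes tested with recovered reads was 4286 reads. For Rps4l and Rpl6l the depth is unknown.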
